A study of Homo sapiens with 28 samples.

Results

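The 10 genes described here encode enzymes of glycolysis and of lactate formation: the isomerase GPI (ENSG00000105220), the aldolase ALDOA (ENSG00000149925), the triose phosphate isomerase TPI1 (ENSG00000111669), the dehydrogenase GAPDH (ENSG00000111640), the kinase PGK1 (ENSG00000102144), the mutase PGAM1 (ENSG00000171314), the enolase ENO1 (ENSG00000074800), the pyruvate kinase PKM (ENSG00000067225) and the lactate dehydrogenase subunits LDHA (ENSG00000134333) and LDHB (ENSG00000111716). They were chosen by name as enzymes of the pathway, not by any measured value. The count table's gene column holds 24678 genes with at least 1 exonic read, and 8 of these 10 are among them. ALDOA and LDHB have exonic reads only when reads are assigned by exon. Glycolysis breaks glucose down to pyruvate in the cytosol and yields ATP and NADH without oxygen. Its enzymes act in a fixed order, and lactate dehydrogenase then reduces pyruvate to lactate, which returns NAD+ to the pathway. Their mRNAs are abundant in cultured human cells and are generally counted among the slowly turned-over transcripts, so few of their molecules are made during a short labelling pulse.

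The measurements were nucleotide-recoding RNA-seq of wild-type HEK 293T cells, a human embryonic kidney line. Cells received 100 µM 4-thiouridine (s4U), a uridine analogue built into new RNA, for 2 h, or none. Total RNA was then treated with NaIO4 and TFEA (TimeLapse, TL in the labels), with iodoacetamide (SLAM) or with OsO4 and NH3 (TUC), each of which makes s4U read as C, so that reads of new RNA carry T-to-C mismatches. RNA had been collected either under drop-out conditions (DO) or with improved handling (IH). The series' design text speaks of common protocols and of ones meant to limit losses of s4U RNA and of mismatched reads, and the labels do not say which steps differed.

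Each of the 12 groups was 1 chemistry, 1 handling and 1 labelling state, with 2 labelled libraries or 1 unlabelled library, which gave 12 labelled and 6 unlabelled libraries. The libraries held 836654 to 4604325 exonic reads of genes. The labels do not say whether duplicates were separate cultures, so p-values measure only the spread between these libraries. In tests that include unlabelled libraries, that spread comes from the labelled duplicates, since each unlabelled group held 1 library. The labels give no batch, so any batch that coincides with a handling cannot be told apart from it. In all genes together, exonic reads carrying 1 or more T-to-C mismatches ("converted reads") made up 13.7% ± 2.80 (SD, n = 6) in labelled DO libraries and 27.3% ± 3.35 (SD, n = 6) in labelled IH libraries. Without s4U they made up 2.86% ± 0.380 (SD, n = 3) and 3.12% ± 0.432 (SD, n = 3). The intronic share of gene reads spanned 26.7% to 35.2% under DO with s4U and 42.1% to 51.8% under IH with s4U.

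The promoters of the 10 genes were also searched for a motif. The motif searched was ACGTG, or CACGT on the other strand, the core of sites bound by hypoxia-inducible factors and, as CACGTG (where both readings overlap), of the E-box bound by MYC, both textbook regulators of glycolytic genes. In the 250 bases before each start site (RefSeq, GRCh38.p14, all 10 genes matched), 8 of the genes' 14 promoters held it, and these belonged to 6 genes. Of all 35116 promoters in the same table, 18.5% held it. Of the 11 matches, 7 are printed below, at least 1 for each of the 6 genes, to show the motif (in capitals) in genes whose read levels are compared next. Of the genes called lower below, GPI, ALDOA, TPI1, GAPDH and PGK1 hold a match, and ENO1, PKM and PGAM1 hold none. LDHA, whose level was not called different between handlings, holds 3, and LDHB, called higher, holds none. A relation of matches to read levels was not tested. A match is only a description of these letters.
GPI, chr19:34364821-34364843, + strand: ctgcctgtaACGTGgaaggtgtt
GAPDH, chr12:6535174-6535197, + strand: ctgcggggtCACGTGtcgcagagg
TPI1, chr12:6868079-6868101, + strand: gcgccgccgCACGTagccccaga
PGK1, chrX:78104056-78104078, + strand: cggaagccgCACGTctcactagt
ALDOA, chr16:30064376-30064399, + strand: cagggaggcCACGTGatccgagtc
LDHA, chr11:18394369-18394392, + strand: ctcccagcgCACGTGgagcagtct
LDHA, chr11:18394467-18394490, + strand: cccgactcaCACGTGggttcccgc

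Of the 8 genes with usable reads under the table's gene column, 7 were lower in labelled IH than in labelled DO libraries, by 2.17-fold to 5.80-fold, and LDHA was not called. Calls were made with edgeR's quasi-likelihood test at a Benjamini-Hochberg adjusted p under 0.05 over 12449 genes. The background is large, since 33.9% of all genes tested were called lower in this comparison. The median log2 difference of the 8 genes was -2.14 (range -2.54 to -0.02), beside 0.44 over all genes. Levels below are exonic reads as CPM, that is, counts divided by the TMM-scaled library size. They are shares of a library, so less RNA of a gene per cell and fewer cells expressing it cannot be told apart. They also depend on gene length, so they are compared between libraries and not between genes.

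GPI, which interconverts glucose phosphate and fructose phosphate, had a lowest, median and highest level of 476, 520 and 601 CPM over the 6 labelled DO libraries. Over the 6 labelled IH libraries it had 106, 116 and 134 CPM. Every IH library was below every DO library, and GPI was 4.45-fold lower (log2 -2.15, SE 0.12, adjusted p = 7.57e-13). About 49.4% of GPI's exonic reads also fell within an overlapping gene model, ENSG00000266953, and are not in these values. With reads assigned by exon instead, which keeps them, the log2 difference was -2.17.

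ALDOA, which splits fructose bisphosphate into a pair of triose phosphates, and LDHB had no reads under the gene column. All their exonic reads lay within a second gene model (ENSG00000285043 and ENSG00000285854) and were marked ambiguous there. Their values come from assignment by exon, an alternative chosen after seeing the data. ALDOA had 331, 540 and 705 CPM in labelled DO and 50.3, 78.6 and 116 CPM in labelled IH libraries. The groups did not overlap, and the TimeLapse libraries were the lowest of each handling. ALDOA was 6.37-fold lower with improved handling (log2 -2.67, SE 0.13, adjusted p = 1.02e-13). By exon assignment, 33.7% of 13528 genes were called lower and 47% higher.

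TPI1, which interconverts the triose phosphates, fell from 2091, 2349 and 3215 CPM under DO to 389, 419 and 470 CPM under IH. The highest DO value was the second iodoacetamide library, and the groups lay far apart. TPI1 had the largest difference of the 8 genes, 5.80-fold (log2 -2.54, SE 0.11, adjusted p = 4.06e-14). GAPDH, which oxidises glyceraldehyde phosphate, fell from 5100, 5853 and 6373 CPM to 1134, 1169 and 1274 CPM. The IH libraries spanned a narrow range and none came near a DO library. GAPDH was 4.91-fold lower (log2 -2.29, SE 0.09, adjusted p = 1.46e-14).

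PGK1, which makes the first ATP of the payoff phase, fell from 308, 378 and 425 CPM to 153, 164 and 213 CPM. The groups did not overlap but lay closer than for TPI1 or GAPDH, and the highest IH value was the first iodoacetamide library. As a percentage of exonic reads without TMM, PGK1's groups did overlap (means 0.0301% in DO and 0.0204% in IH). PGK1 was 2.17-fold lower (log2 -1.11, SE 0.13, adjusted p = 7.85e-08). PGAM1, the phosphoglycerate mutase, had few reads, 1215 over all 18 libraries. It fell from 54.96, 74.3 and 109 CPM to 25.4, 30.5 and 34.4 CPM, again without overlap. Its difference was 2.61-fold (log2 -1.38, SE 0.19, adjusted p = 5.29e-07).

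ENO1, the enolase that forms phosphoenolpyruvate, fell from 3012, 3435 and 3767 CPM to 719, 785 and 866 CPM. No library of one handling reached the range of the other, and ENO1 was 4.34-fold lower (log2 -2.12, SE 0.09, adjusted p = 4.43e-14). PKM, which forms pyruvate and the last ATP of the pathway, fell from 3483, 3683 and 3893 CPM to 664, 722 and 751 CPM. Libraries of the same handling were close together, and the difference was 5.16-fold (log2 -2.37, SE 0.09, adjusted p = 8.66e-15).

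The lactate dehydrogenase subunits, which together form the enzyme that interconverts pyruvate and lactate, had other values. LDHA had 316, 325 and 356 CPM in labelled DO and 286, 324 and 373 CPM in labelled IH libraries. The IH range enclosed the DO range, and the log2 difference was -0.02 (SE 0.11, 95% interval -0.25 to 0.21, adjusted p = 0.897). LDHB, by exon assignment, rose from 41.7, 51.2 and 86.8 CPM to 108, 137 and 154 CPM. Every IH library was above every DO library, and LDHB was 2.31-fold higher (log2 1.21, SE 0.16, adjusted p = 5.61e-07). Genes as a whole were 0.44 higher on the log2 scale with TMM, and 0.995 higher when libraries were scaled to their totals without TMM. Relative to the median gene, LDHA stood at -0.46 with TMM and at -0.45 without it. Scaled to totals alone LDHA was called higher (log2 0.54, adjusted p = 0.00018), while the 7 lower genes remained lower. Their differences were then smaller, with log2 values from -0.56 (PGK1) to -1.98 (TPI1). With intronic reads added to the exonic ones, LDHA was called lower (log2 -0.71, edgeR adjusted p = 5.29e-05), as were 4987 of 15397 genes. LDHA's own intronic reads were 2.06% of its reads in labelled DO and 2.24% in labelled IH libraries. The library totals of that fit include the intronic reads of all genes.

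**Figure D1:**
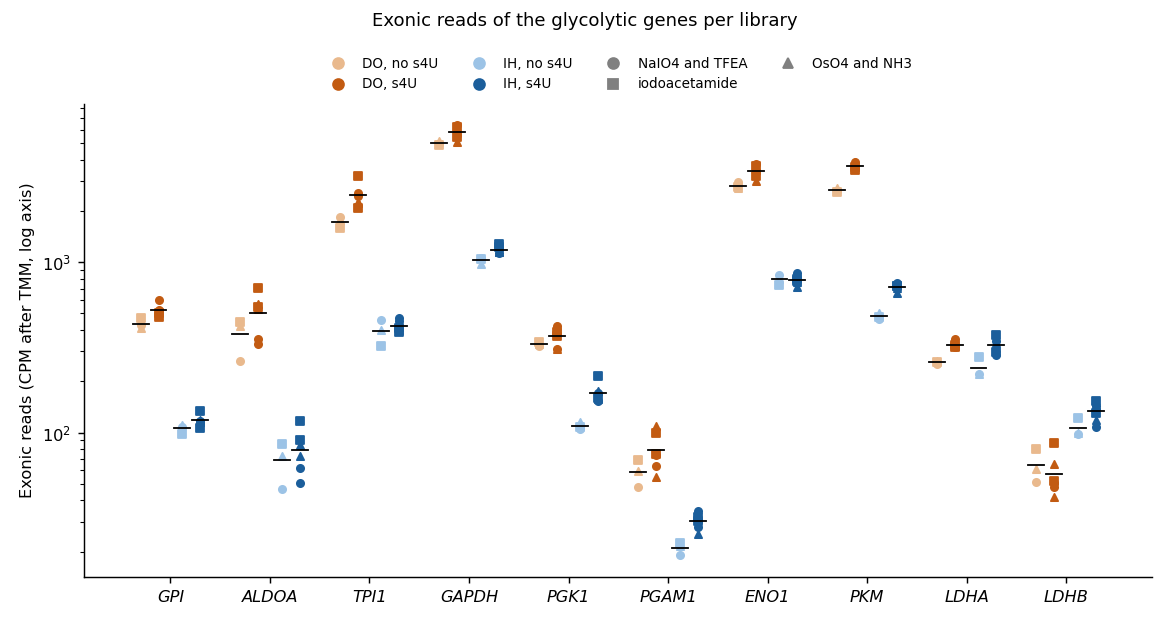
Exonic reads of the 10 genes per library in CPM after TMM (log axis), with colours for handling and s4U, symbols for the chemistry and a bar at each group mean. GAPDH lies at 5100 to 6373 CPM in labelled DO and at 1134 to 1274 CPM in labelled IH libraries, LDHA overlaps and LDHB is higher under IH; ALDOA and LDHB are by exon assignment.

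The handling difference was also present without s4U, where it rests on 3 libraries per handling, 1 for each chemistry. With 1 library per unlabelled group, the spread behind these p-values comes from the labelled duplicates and not from the unlabelled libraries. Here too 7 of the 8 genes were called lower with improved handling and LDHA was not, while 30.7% of all genes were called lower. The 8 genes' median log2 difference was -1.93, beside 0.43 over all genes. GAPDH had 4960, 4876 and 5113 CPM in the DO libraries of TimeLapse, iodoacetamide and OsO4 and 1051, 1050 and 970 CPM in the corresponding IH libraries. The chemistries were alike within each handling. GAPDH's log2 difference was -2.28 (edgeR adjusted p = 2.47e-11).

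PKM had 2623, 2566 and 2725 CPM in unlabelled DO libraries of TimeLapse, iodoacetamide and OsO4, and 463, 479 and 500 CPM in IH libraries. Its groups lay well apart, and its log2 difference of -2.46 was the largest of the 8 genes without s4U. TPI1, GPI and ENO1 differed by -2.15, -2.04 and -1.83 on the log2 scale. PGK1 went from 323, 340 and 330 CPM to 105, 108 and 115 CPM, and PGAM1 from 47.9, 68.8 and 59.7 CPM to 19.0, 22.5 and 21.4 CPM. Their log2 differences were -1.60 and -1.47, and neither gene's groups overlapped. LDHA had 254, 260 and 265 CPM against 221, 276 and 221 CPM, which overlapped, with a log2 difference of -0.12 (edgeR adjusted p = 0.502). By exon assignment ALDOA differed by -2.47 and LDHB by 0.75 (edgeR adjusted p = 0.00595), where 30.6% of genes were called lower and 41.5% higher.

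Few of the genes were called when labelled libraries were compared with unlabelled ones. Under improved handling 1 of the 8 was called higher with s4U, beside 0.177% of all genes, and that gene was PKM. PKM's unlabelled IH libraries had 463, 479 and 500 CPM, and the labelled ones 664, 722 and 751 CPM (lowest, median, highest), with a log2 difference of 0.57 (SE 0.11, edgeR adjusted p = 0.0171). The call was lost without any 1 of the 6 labelled IH libraries (adjusted p 0.0587 to 0.109), with log2 differences of 0.560 to 0.588. PGK1 differed by 0.64 (adjusted p = 0.18) and LDHA by 0.45 (adjusted p = 0.342).

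Under drop-out handling none of the 8 genes was called with edgeR, beside 0.12% of all genes called higher, and 5 of the 8 had an unadjusted p under 0.05, as had 1352 of all 12449 genes. DESeq2 called 2, PKM and TPI1, among 43 genes called higher of 6415. PKM differed by 0.48 (adjusted p = 0.056) and TPI1 by 0.51 (adjusted p = 0.105) in edgeR. Without the first labelled iodoacetamide DO library, edgeR called 4: PKM, TPI1, GAPDH and ENO1. That fit called 185 of 12453 genes higher, against 15 with all libraries. The difference between the 2 labelling effects was tested as an interaction, in which 0% of genes were called. Among the 8 genes PGK1 (0.48, unadjusted p = 0.0443) and TPI1 (-0.39, unadjusted p = 0.0447) were nearest, both with adjusted p = 0.673 in edgeR.

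The share of converted reads rose with improved handling in all 7 genes that had at least 50 exonic reads in every labelled library. The background is again large, with 81.9% of 1992 genes called higher. The test compared converted with unconverted reads within each library in edgeR, so a difference is a log2 odds ratio. The 7 genes' median was 0.74, beside 1.09 over all genes. In labelled IH libraries these genes were low in the order of all 1992 genes, with 2.26% (GAPDH) to 22.5% (LDHA) of genes below them. In unlabelled IH libraries they were high, with 64.0% (PKM) to 98.5% (GPI) of genes below. Counted as mismatches per T position, the unlabelled IH ranks ran from 44.3% (PGK1) to 98.2% (GPI), with PKM at 58.5%. The median gene had 10.6% converted reads in labelled DO, 21.5% in labelled IH and 2.59% and 2.94% in the unlabelled libraries.

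GAPDH had the lowest mean labelled IH share of the 10 genes. Its converted share was 5.20%, 5.47% and 6.58% (lowest, median, highest) in labelled DO and 5.89%, 7.44% and 9.28% in labelled IH libraries. The ranges overlapped. GAPDH's unlabelled libraries held 2.98%, 4.46% and 3.64% (DO; TimeLapse, iodoacetamide, OsO4) and 3.07%, 4.53% and 4.19% (IH). The labelled DO mean of 5.62% ± 0.494 (SD, n = 6) was thus 1.93 percentage points above the matching unlabelled libraries, and the IH mean of 7.40% ± 1.19 (SD, n = 6) was 3.47 points above. The log2 odds ratio was 0.42 (SE 0.16, edgeR adjusted p = 0.0145), and without the second labelled iodoacetamide IH library it was 0.36 (adjusted p = 0.0716).

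TPI1 went from 5.48%, 6.27% and 8.11% to 7.92%, 9.45% and 12.8%, with a log2 odds ratio of 0.65 (SE 0.18, edgeR adjusted p = 0.00129). The lowest IH library lay below the highest DO library. ENO1 went from 6.51%, 8.25% and 9.17% to 10.4%, 12.8% and 13.8%, without overlap, with a log2 odds ratio of 0.74 (SE 0.17, edgeR adjusted p = 6.9e-05). PKM went from 5.84%, 6.54% and 6.69% to 10.5%, 12.3% and 15.2%. PKM's DO libraries were the closest together of the 10 genes, and its log2 odds ratio was 1.07 (SE 0.17, edgeR adjusted p = 7.54e-08). Without s4U, PKM's DO libraries had 3.51%, 5.67% and 2.29% (TimeLapse, iodoacetamide, OsO4), and the labelled iodoacetamide mean was 0.552 points above its unlabelled value.

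Counted as reads with 1 or more mismatches, GPI, PGK1, PKM and LDHA each had labelled DO shares close to or below those without s4U in at least 1 chemistry. GPI went from 4.41%, 5.39% and 6.30% to 8.93%, 10.8% and 17.2%, with a log2 odds ratio of 1.23 (SE 0.26, edgeR adjusted p = 3.03e-05). The groups did not overlap, and the labelled DO mean was 0.802 points above the unlabelled one. In iodoacetamide DO libraries GPI's labelled mean was 5.13% and the unlabelled value 7.21%. By exon assignment, which keeps GPI's ambiguous reads, these were 5.95% and 5.98%, and the log2 odds ratio was 0.97 (SE 0.22, edgeR adjusted p = 4.66e-05), below PKM's 1.07. Under the gene column, reads with at least 2 mismatches were more frequent with s4U than without in DO libraries of each of these genes. The means with and without s4U were 0.788% and 0% (GPI), 1.01% and 0% (PGK1), 1.78% and 0.0441% (PKM) and 3.61% and 0.144% (LDHA).

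PGK1 went from 2.38%, 4.63% and 6.10% to 6.79%, 11.7% and 15.7%, with a log2 odds ratio of 1.49 (SE 0.27, edgeR adjusted p = 2.03e-06). Its unlabelled DO libraries held 5.98%, 4.97% and 5.76%, so its labelled DO mean was below the matching unlabelled library in all 3 chemistries, by 1.06 points on average (a difference of -1.06). Under improved handling the labelled mean was 8.35 points above the unlabelled one. At 243 to 418 PGK1 reads, each unlabelled DO share is imprecise.

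LDHA went from 6.13%, 8.77% and 16.03% to 9.32%, 14.9% and 16.3%. The DO libraries were widely spread, and the highest of them reached the IH range. Without s4U, LDHA's DO libraries had 4.57%, 9.52% and 1.54% (TimeLapse, iodoacetamide, OsO4), and the labelled iodoacetamide mean of 8.77% lay below its unlabelled value. LDHA's log2 odds ratio was 0.52 (SE 0.24, edgeR adjusted p = 0.037), and the call was lost in 7 of the 12 fits that left out 1 labelled library (largest adjusted p = 0.21). The other 3 genes had too few reads for this test under the gene column. By exon assignment ALDOA went from 4.27%, 6.49% and 7.72% to 7.39%, 10.8% and 12.4%, with a log2 odds ratio of 0.81 (edgeR adjusted p = 0.00778), where 81.9% of genes were called higher. Its ranges overlapped slightly. LDHB went from 2.86%, 5.57% and 13.4% to 10.8%, 13.7% and 19.2%, and PGAM1 from 8.22%, 14.9% and 19.3% to 15.6%, 21.5% and 41.2%. Both overlapped between handlings and were not tested.

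Counted per T position, the 7 genes rose from 1.53 (PGK1) to 5.03 (LDHA) T-to-C mismatches per 1000 T under DO to 3.62 (GAPDH) to 8.88 (PKM) under IH in labelled libraries. The median gene had 6.11 and 16.4. The number of T positions per read of each of the 10 genes was almost equal between handlings in labelled libraries, with ratios of 0.972 (PGK1) to 1.02 (PGAM1).

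**Figure D2:**
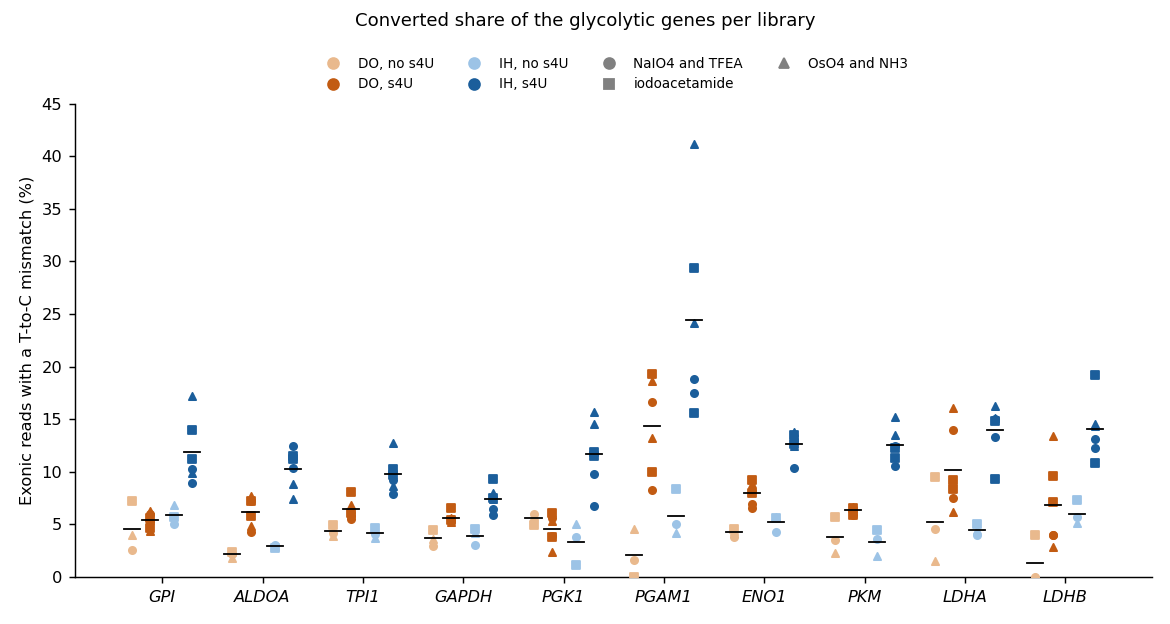
Converted exonic reads (1 or more T-to-C mismatches) in percent per library for the 10 genes, with colours for handling and s4U, symbols for the chemistry and a bar at each group mean. PGK1's labelled DO libraries (2.38% to 6.10%) overlap its unlabelled DO values (4.97% to 5.98%), and its labelled IH libraries reach 6.79% to 15.7%.

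The 3 chemistries were compared with each other under improved handling. For each of the 3 pairs, 0 of the 7 genes and 0% of all genes were called in edgeR, where 80, 75 and 41 genes had an unadjusted p under 0.05. PGK1 with OsO4 against NaIO4 and TFEA was the only one of the 7 genes with an unadjusted p under 0.05 in any pair. Its libraries held 15.7% and 14.6% with OsO4 and 9.79% and 6.79% with NaIO4 and TFEA, a log2 odds ratio of 0.94. With 2 libraries per chemistry, these pairs leave wide intervals and do not show that the chemistries act alike.

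Intronic reads are commonly taken to come from unspliced, recent transcripts, which was not tested for these genes. Of the 7 genes, 3 (GPI, PKM and ENO1) had a higher intronic share in every labelled IH library than in every labelled DO library, a pattern met by 60% of 1992 genes. GPI's intronic reads were 5.21%, 6.40% and 7.25% of its reads in labelled DO and 41.5%, 44.7% and 48.3% in labelled IH libraries. GPI's ambiguous exonic reads are left out, which raises this share in both handlings. On the CPM scale used for exonic reads, GPI's intronic reads were at 35.5 ± 4.46 in DO and 96.3 ± 11.1 in IH libraries (SD, n = 6), without overlap. Without s4U the share was 8.88%, 5.45% and 9.01% in DO (TimeLapse, iodoacetamide, OsO4) and 45.4%, 41.6% and 44.6% in IH libraries, so labelled and unlabelled libraries of a handling lay close together.

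PKM's intronic share went from 1.43% ± 0.221 to 7.41% ± 1.94 and ENO1's from 1.56% ± 0.265 to 5.72% ± 1.14 (SD, n = 6 each). On the CPM scale PKM's intronic reads were at 53.8 ± 10.2 in DO and 57.1 ± 14.0 in IH libraries and ENO1's at 53.9 ± 8.20 and 47.6 ± 8.55, with overlapping ranges, while the exonic reads of both fell. The scaling decides this: scaled to exonic totals without TMM, PKM's intronic reads were at 43.9 in DO and 68.1 in IH libraries, without overlap, and ENO1's at 43.9 and 56.8, with overlap. PKM's unlabelled IH libraries had intronic shares of 12.3%, 11.95% and 13.8%, all above the labelled IH ones. GAPDH's intronic reads were at 37.0 ± 18.7 and 12.5 ± 3.31 CPM, without overlap (29.7 and 14.9 without TMM, with overlap), although its intronic share was 0.626% in DO and 1.04% in IH libraries. PGAM1's share went from 7.55% to 28.3% on 41 and 140 intronic reads in all. PGK1's share ranged over 4.12% to 14.0% and 11.95% to 18.6%, which overlapped, as did LDHA's 2.06% and 2.24%.

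The converted share of the intronic reads was counted next. Summed over the 6 labelled libraries of each handling, 161 of 232 intronic GPI reads were converted in DO (69.4%, 95% Wilson interval 63.2% to 74.97%) and 812 of 1051 in IH (77.3%, 74.6% to 79.7%). PKM's went from 29.7% to 85.0% and ENO1's from 31.4% to 74.95%. For PGK1, 20 of 258 were converted in DO (7.75%, 5.07% to 11.7%) and 209 of 349 in IH (59.9%, 54.7% to 64.9%). In unlabelled DO libraries 2 of 73 intronic PGK1 reads were converted (2.74%, 0.755% to 9.45%), an interval that overlaps that of the labelled DO reads. The second labelled iodoacetamide DO library supplied 122 of the 258 PGK1 reads, 4 of them converted, and without it the labelled DO share was 16 of 136 (11.8%). Without s4U, between 0 of 108 (GPI in DO, upper bound 3.43%) and 5 of 47 (TPI1 in DO, 10.6%) intronic reads of these 8 genes were converted. These intervals cover counting error only.

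**Figure D3:**
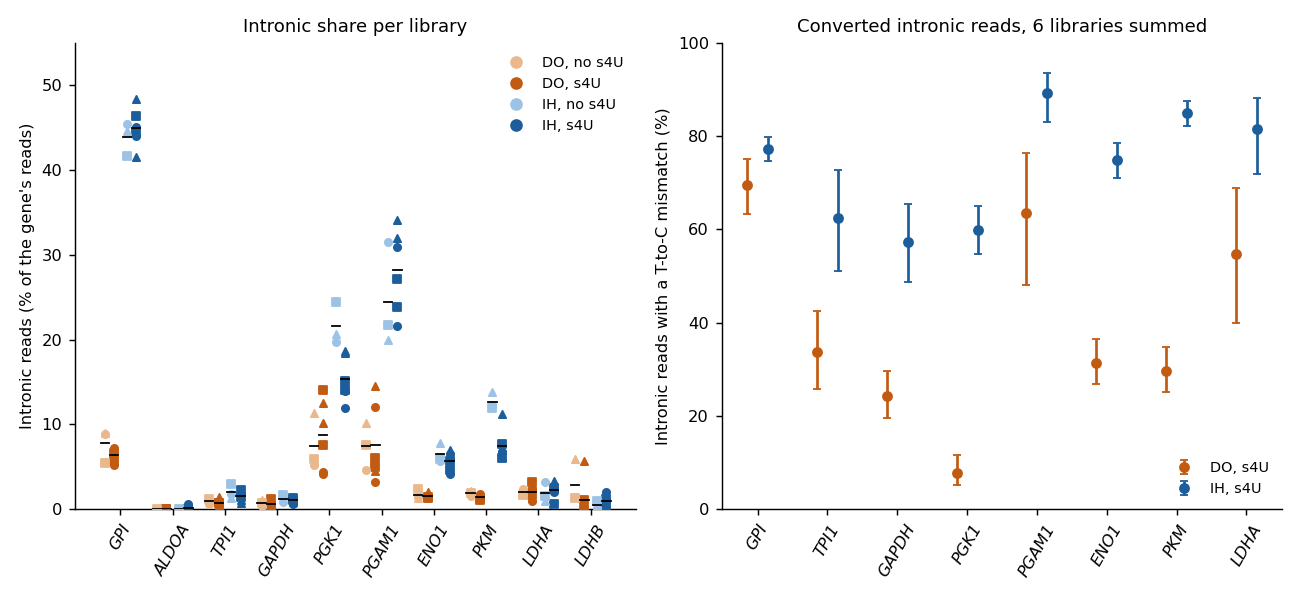
Left, intronic reads as percent of each gene's reads per library, with a bar at each group mean; right, percent of intronic reads with a T-to-C mismatch, summed over the 6 labelled libraries of each handling, with 95% Wilson intervals. GPI lies at 5.21% to 7.25% intronic in labelled DO and at 41.5% to 48.3% in labelled IH libraries, and PGK1's converted intronic share is 7.75% in DO and 59.9% in IH.

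The share of new reads was also estimated from the number of mismatches and T positions of each read, as a mixture of a background rate, taken from the matching unlabelled library, and a new-read rate fitted per library. The background rate is 1 value per library for all genes, so a gene's own excess of mismatches without s4U enters its share. In unlabelled libraries GPI had 1.47 (DO) and 1.81 (IH) and PGK1 1.43 (DO) mismatches per 1000 T, beside 0.841 and 0.899 for the median gene, and PGK1's labelled DO converted share lay below its unlabelled value in all 3 chemistries. Over all genes together the share of new reads was 10.3% to 16.8% in DO and 23.6% to 31.7% in IH libraries. All 10 genes had a higher mean share in IH than in DO, a rise that all genes together also had. No count of other genes with a higher estimate is given here. GPI went from 1.75% ± 0.611 to 9.32% ± 2.32, and PGK1 from 1.53% ± 1.25 to 7.97% ± 3.23 (SD, n = 6). PKM went from 3.38% ± 0.700 to 10.0% ± 1.36 and ENO1 from 4.65% ± 0.608 to 9.69% ± 1.14. GAPDH had the lowest share with improved handling, 2.22% ± 0.498 in DO and 3.64% ± 0.848 in IH, and TPI1 was next with 2.60% ± 0.518 and 5.61% ± 1.64. PGAM1 had the highest, 12.7% ± 5.33 and 22.2% ± 9.16. LDHA (5.88% and 9.35%), LDHB (3.74% and 8.76%) and ALDOA (4.55% and 8.79%) lay between. These estimates use the aligner HISAT-3N, which gave PGAM1 only 1215 exonic reads over all 18 libraries. With STAR and HISAT2, compared below, PGAM1's labelled converted share (10.7% and 8.99%) was below LDHB's (12.2% and 9.68%).

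The same reads were aligned with HISAT-3N, which tolerates T-to-C mismatches, and with STAR and HISAT2. Several of these genes have many processed pseudogene copies, so a read's placement can depend on the aligner. STAR (settings coded D in the table) was compared with HISAT-3N within the 12 labelled libraries by an exact two-sided sign-flip permutation test on log2(CPM + 1), adjusted over all genes. Of the 8 genes, 6 were called, 4 higher and 2 lower with STAR, beside 14.9% and 27.6% of all genes.

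PGAM1 depended most on the aligner. Over the 18 libraries it had 1215 exonic reads with HISAT-3N, 2929 with STAR and 5140 with HISAT2, whereas ENO1 had 46895, 50743 and 51002. On the CPM scale PGAM1 was 1.902-fold higher with STAR (log2 0.93 ± 0.195 SD, higher in 12 of 12 libraries, adjusted p = 0.00293 by the exact test). LDHA (0.13), PGK1 (0.10) and TPI1 (0.07) were called slightly higher, and ENO1 (-0.20) and PKM (-0.18) slightly lower, on the same log2 scale. GAPDH had 75017 reads with HISAT-3N and 92605 with STAR, but its CPM did not pass the test.

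The converted share was lower with STAR in 5 of 7 genes, beside 54.9% of all genes, and higher in none, beside 1.82%. LDHA fell by 2.86 percentage points on average, and the drop was present in all 12 libraries (adjusted p = 0.00181 by the exact test, the smallest raw p it allows being 0.000488). The differences were -2.09 points for PGK1, -1.36 for GPI, -0.86 for TPI1 and -0.85 for GAPDH. ENO1 (-0.26 points) and PKM (0.05 points) were not called, and the median over all genes was -1.26. PGAM1 was not in this test. Summed over labelled libraries its converted share was 17.9% with HISAT-3N, 10.7% with STAR and 8.99% with HISAT2, and without s4U it was 3.70%, 3.63% and 3.35%. PGAM1's larger read sets were thus less often converted than its HISAT-3N reads.

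With HISAT2 settings coded VL, conversion without s4U was higher than with D in all 10 genes, between 7.61% (GAPDH) and 13.8% (ALDOA), where D gave 2.36% to 4.86%. The handling difference of the converted share had the same direction with STAR, and PGAM1, which had too few reads for this test with HISAT-3N, was called higher with STAR (log2 odds ratio 1.45, edgeR adjusted p = 0.000227).

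**Figure D4:**
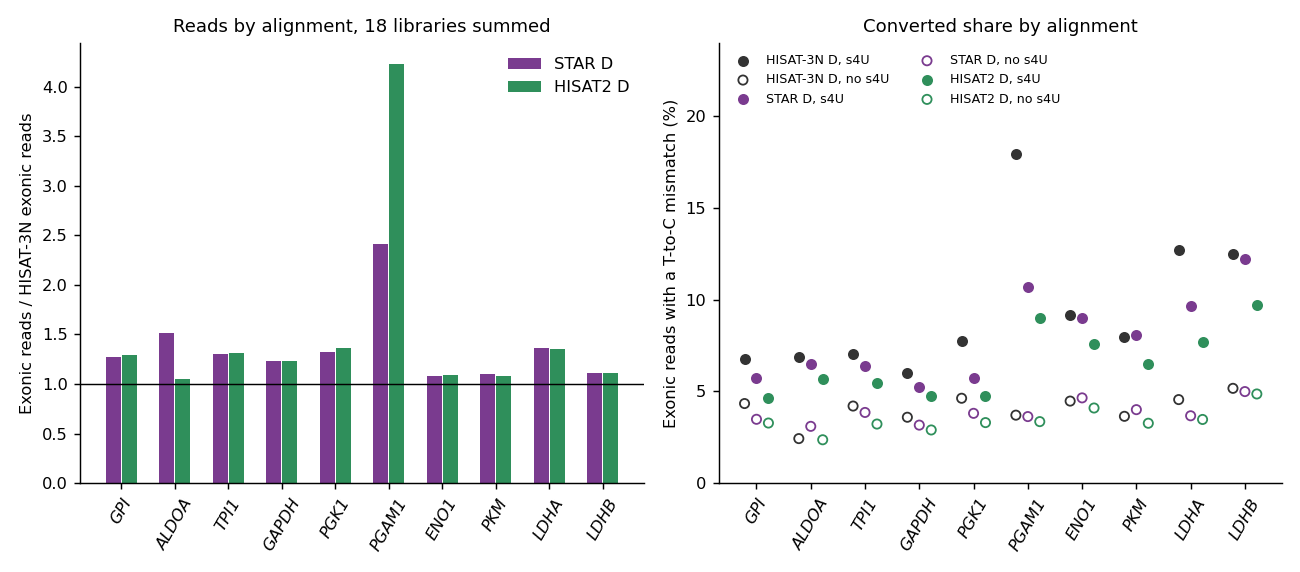
Left, exonic reads (by exon assignment, 18 libraries summed) with STAR and HISAT2, settings D, as a ratio to HISAT-3N; right, percent of those reads with a T-to-C mismatch, filled symbols with s4U and open ones without. PGAM1 stands out at 2.41 and 4.23 times its HISAT-3N reads, and its labelled converted share is 17.9%, 10.7% and 8.99%.

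The authors' deposited table gives first-order degradation rate constants per transcript and handling, with no time unit stated, for 7 of the 10 genes: GPI, ALDOA, TPI1, PGK1, ENO1, PKM and LDHA. In the authors' deposited table all 7 had a higher constant with improved handling in all 3 chemistries. Most transcripts did too. With NaIO4 and TFEA only 8.83% of transcripts in the authors' deposited table had a log2 change below 0.08. With OsO4, 15.9% lay below 0.36, and with iodoacetamide 14.3% lay below 0.26, in the authors' deposited table. At the authors' adjusted p under 0.05, 7 of 7 were higher with NaIO4 and TFEA, 5 of 7 with OsO4 and NH3 and 6 of 7 with iodoacetamide, in the authors' deposited table. In the authors' deposited table the shares of all transcripts called higher were 52.6%, 48.1% and 48.9%.

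The genes' constants were low with either handling. With NaIO4 and TFEA the 7 genes' median constant, per the authors' deposited table, was 0.0128 in DO and 0.0290 in IH, beside 0.0430 and 0.102 over 2209 transcripts. With OsO4 the medians were 0.0146 and 0.0400, and with iodoacetamide 0.0111 and 0.0266, in the authors' deposited table. In the authors' deposited table PGK1 had constants of 0.00804 and 0.0243 with NaIO4 and TFEA, 0.00736 and 0.0498 with OsO4, and 0.00322 and 0.0243 with iodoacetamide. The iodoacetamide DO constant of PGK1 was the lowest of all 1600 transcripts of that chemistry. In those labelled libraries PGK1's mean converted share was 4.93%, close to the 4.97% of the matching unlabelled library.

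For NaIO4 and TFEA, OsO4 and iodoacetamide, the log2 changes of GPI in the authors' deposited table were 2.26, 2.35 and 3.17. PGK1 had 1.67, 2.86 and 3.03 there, the 3.03 resting on its lowest DO constant. ALDOA had 1.18 (adjusted p = 0.00251), 0.36 (adjusted p = 0.388) and 0.26 (adjusted p = 0.588) in the authors' deposited table. GPI and PGK1 thus had the largest changes of the 7 genes in the constants, which come from the same libraries as the converted shares and are no independent evidence. PKM's 1.61, 1.504 and 1.59 in the authors' deposited table were alike among chemistries.

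Other genes of the pathway could be named only through that table, since the count table gives gene identifiers without symbols. Of 30 looked up, 7 were listed: the hexokinase HK1, the phosphofructokinases PFKL, PFKM and PFKP, the lactate transporter SLC16A1 and the pyruvate dehydrogenase subunits PDHA1 and PDHB. In the authors' deposited table, 3 of 5 listed with NaIO4 and TFEA, 5 of 6 with OsO4 and 2 of 3 with iodoacetamide were called higher with improved handling, and none lower. Their median log2 changes in the authors' deposited table were 1.897, 2.35 and 1.87, beside 1.18, 1.19 and 1.14 over all transcripts. SLC16A1 differed in sign, with constants of 0.0971 in DO and 0.0719 in IH for NaIO4 and TFEA and a log2 change of -0.38 that was not called (adjusted p = 0.454) in the authors' deposited table. PFKL, of the committed step, went from 0.00932 to 0.0564 in the authors' deposited table for the TimeLapse chemistry. Of the 6 markers of the cell line looked up, 4 (VIM, KRT18, NEFM and NEFL) were listed and KRT8 and LIN28B were not, and of PTPRC, ALB, COL1A2 and HBB, markers of other cell types, none was. A list of names does not give levels, so the label of the cells was checked no further.

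**Figure D5:**
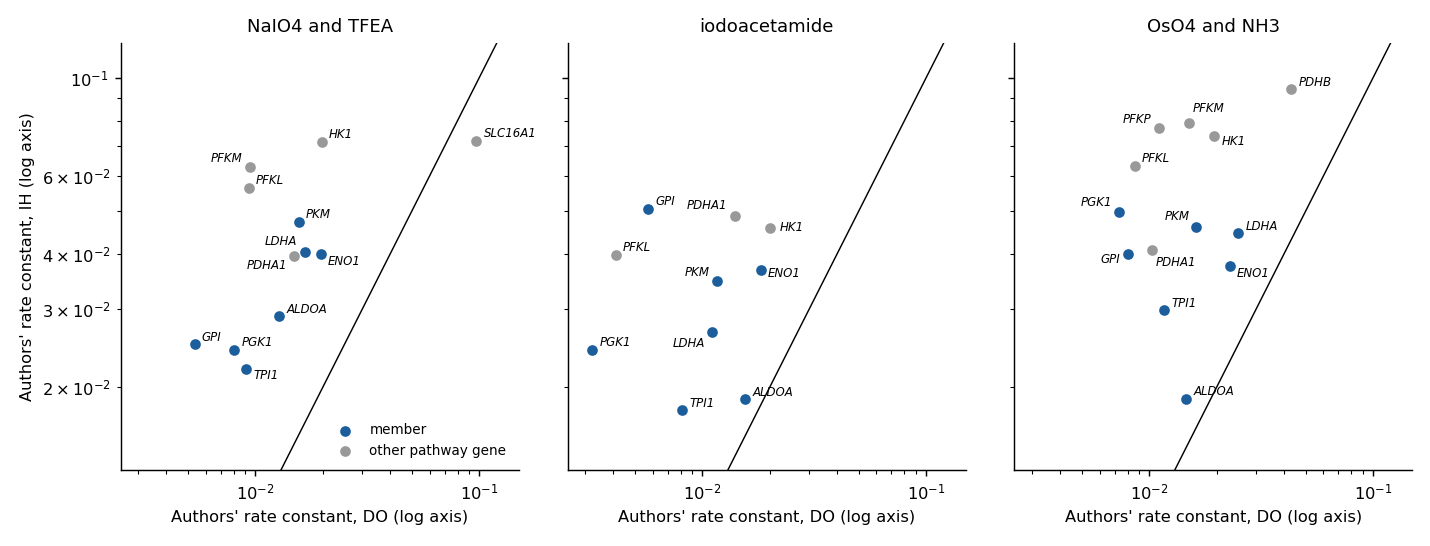
Rate constants of the authors' deposited table in DO (x axis) and IH (y axis), both log axes with no stated time unit, for the glycolytic genes (blue) and other genes of the pathway (grey), with a line where they are equal. All 7 glycolytic genes lie above the line in all 3 chemistries, with ALDOA nearest to it in iodoacetamide and OsO4. Most transcripts of the authors' deposited table, not drawn here, also had the higher constant in IH.

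The genes whose converted shares were most like the median of the 7 tested genes were ENSG00000168028 and ENSG00000253729, as root mean square differences of the logit share over the 12 labelled libraries. The difference was 0.130 for ENSG00000168028, whose converted share was 6.35% ± 0.873 in DO and 12.7% ± 1.70 in IH libraries. It was 0.146 for ENSG00000253729, with 5.85% ± 0.833 and 12.5% ± 1.83 (SD, n = 6 each).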

How the data were processed

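Total RNA of HEK 293T cells was extracted with Trizol, DNase-treated, converted and made into stranded libraries, per the labels' protocols. The authors deposited a count table: whole-number read counts per library, aligner, settings code, gene, exon assignment, intronic flag, T-to-C mismatches per read and T positions per read. The submitters' processing notes name GRCh38, cutadapt, HISAT2, STAR, HISAT, Picard, HTSeq and DESeq2, without versions. The authors also deposited rate constants from bakR, other values with no stated time unit, with log2 fold changes between handlings and adjusted p-values, per the labels. T-to-C and T numbers are other values of the deposited count table.

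The 18 libraries of 3 chemistries were analysed and 10 others were not analysed here. The 10 genes and all lists were chosen with earlier results of these data known. Rules named every one of the 10 genes, 30 other pathway genes and the 2 most similar genes. HISAT-3N exonic reads of the gene column, kept by filterByExpr and scaled by TMM, were fitted with edgeR 4.0.16 (R 4.3.3) over 12 groups, adjusted over all genes. SE is the log2 difference divided by the square root of F. Converted shares were fitted with 1 term per library, keeping genes that reached 50 exonic reads in every labelled library. The new-read share came from a mixture of 2 binomials. Scripts were tested on simulated data. Alternatives were DESeq2 1.42.0, no filter, other aligners, intronic reads, exon assignment, library totals, a replicate block, 2 mismatches, a minimum of 200 reads and leaving out each labelled library. PCR duplicates cannot be counted, and the Wilson intervals cover counting error only. The interval printed with LDHA's log2 difference is that difference plus or minus 2 SE and reflects the spread between libraries.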

Additional observations from a re-analysis of the deposited data

Results flagged for a closer look

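Of 40 groups of 6 libraries checked, 3 held a library whose gap to its nearest neighbour was large against the group's range, and chance gives about 1 in 20. PGK1 had 213.4 CPM in the first labelled iodoacetamide IH library, where the other 5 labelled IH libraries had 153.2 to 174.3 CPM. LDHA had 355.9 CPM in the second labelled TimeLapse DO library, where the others had 315.7 to 329.8 CPM. GAPDH had 6.578% converted reads in the first labelled iodoacetamide DO library, where the others had 5.196% to 5.632%. No explanation was tested for these values.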

How the results depend on the processing

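The 7 genes called lower with improved handling were called lower under all alternatives run, with and without s4U, and with intronic reads added LDHA was too. With intronic reads added the log2 differences in labelled libraries grew from -2.54 to -3.22 (TPI1), from -2.29 to -2.98 (GAPDH) and from -2.37 to -2.97 (PKM). They also grew from -2.12 to -2.75 (ENO1) and from -1.11 to -1.70 (PGK1). Without s4U they were -2.79 (TPI1), -2.94 (GAPDH) and -2.42 (ENO1). The median of the 8 genes in labelled libraries went from -2.14 to -2.41. GPI and PGAM1 are not listed, and over all fits of labelled libraries they spanned -2.31 to -1.60 and -1.70 to -0.82. Library totals in this fit include all intronic reads, and 4987 of 15397 genes were called lower in labelled IH libraries. LDHA, not called in the report, turned to a call of higher (log2 0.5402) with library totals without TMM, an alternative chosen after seeing the data, which moved all called genes from 5813 higher and 4220 lower to 6991 higher and 3031 lower. With s4U against none under drop-out handling, the number of the 8 genes called was 0 in the report, 2 without the filter, 2 with DESeq2, 1 with STAR and 0 to 4 when each labelled library was left out. Of all genes, 71 of 24678 were called higher without the filter and 7 of 12591 with STAR. Under improved handling the number called was 1 in the report, 0 with intronic reads added and 0 with the replicate block. Those alternatives called 31 of 15397 and 12 of 12449 genes higher. Here too the number changed in some fits that left out 1 labelled library. Gene by gene, deviations of same-numbered libraries correlated by -4e-05 to 0.00576 for counts and by 0.00629 to 0.0257 for converted shares. A shift shared by all genes does not enter these correlations. The fitted new-read mismatch rate was higher in replicate 1 than in replicate 2 in every chemistry and handling. With OsO4 under IH it was 9.89% and 7.82% per T, and with iodoacetamide under DO 6.03% and 4.47%. Whether replicate numbers pair the libraries is thus not settled. With the block, PKM's log2 difference with s4U under IH was 0.5409 (edgeR adjusted p = 0.108), and the block changed no other call. For the converted share every gene tested was called under the other alternatives (6 of 6 with a minimum of 200 reads, 8 of 8 by exon assignment and with STAR), and 5 to 7 of 7 when each library was left out. Most genes tested were called in this comparison, 81.9% of 1992 in the report and 81.9% of 2081 by exon assignment. The shares of all genes called with a minimum of 200 reads and with STAR are not given here. Counting reads with at least 2 mismatches raised the log2 odds ratios, from 1.23 to 2.95 for GPI and from 1.49 to 2.64 for PGK1, and adding intronic reads gave 2.72 and 2.17. The small read numbers of PGAM1 and LDHB limit their converted shares.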
